A study of Homo sapiens with 8 samples.

Results

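Metallothioneins are small cysteine-rich proteins that bind zinc and copper ions in the cytosol and nucleus. The 8 genes described here, MT1A, MT1E, MT1F, MT1G, MT1H, MT1M, MT1X and MT2A, are all the rows of the deposited expression table that carry these symbols, out of 18902 rows analysed. They were taken by family name, with earlier results of these data known. They encode closely related proteins and lie in a cluster on chromosome 16. The RNA came from 2 human hepatocellular carcinoma lines, MHCC-97H and MHCC-97L, a pair set apart by high (H) and low (L) metastatic potential. The groups were MHCC-97H with stably expressed Flag-OGT, MHCC-97H without it, MHCC-97L with Flag-OGT and MHCC-97L without it, with 2 libraries each, 8 in all. Flag-OGT is full-length wild-type O-GlcNAc transferase, the enzyme that adds single N-acetylglucosamine sugars to nuclear and cytosolic proteins, with a Flag tag at its C-terminus. It came from a lentiviral vector that also carries luciferase and a neomycin resistance gene, and stable transfectants were selected with the drug. All groups were cultured cells grown in the same serum-containing medium. No genotype is labelled for the libraries without Flag-OGT, here called controls. The sources used here do not state whether controls held an empty vector, whether a transfectant was 1 clone or a pool, or whether libraries came from separate cultures. P-values therefore rest on a spread between 2 libraries a group that may be only technical.

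In most cells metallothionein transcription is driven by MTF1, a zinc-finger factor that senses free zinc and binds metal response elements in the promoters. Glucocorticoids and interleukin-6 add to this drive in liver, which is a main site of metallothionein synthesis. The protein then holds zinc and copper in exchangeable form, sequesters cadmium and scavenges radicals. MT2A and MT1X are the broadly transcribed members, while several other MT1 genes are transcribed at low levels until metals or hormones induce them. In hepatocellular carcinoma, low metallothionein levels relative to liver are well known, and promoter methylation has been described for several MT1 genes.

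The promoters show the feature that gives the family its metal response. RefSeq promoter sequences on GRCh38.p14 were at hand for 3 of the 8 genes, and the 250 bases before each start site are shown here because MT2A and MT1X carry most of the results below, with MT1H as a member listed at or near 0. Capitals mark the core of the metal response element, TGCACNC or TGCGCNC, on either strand.
MT2A, chr16:56608334-56608583, plus strand: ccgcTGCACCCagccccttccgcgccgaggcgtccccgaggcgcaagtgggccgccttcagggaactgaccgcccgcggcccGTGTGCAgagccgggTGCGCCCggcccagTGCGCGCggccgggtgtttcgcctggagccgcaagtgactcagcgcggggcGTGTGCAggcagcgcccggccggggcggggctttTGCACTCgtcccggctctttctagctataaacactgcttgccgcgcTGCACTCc
MT1X, chr16:56682220-56682469, plus strand: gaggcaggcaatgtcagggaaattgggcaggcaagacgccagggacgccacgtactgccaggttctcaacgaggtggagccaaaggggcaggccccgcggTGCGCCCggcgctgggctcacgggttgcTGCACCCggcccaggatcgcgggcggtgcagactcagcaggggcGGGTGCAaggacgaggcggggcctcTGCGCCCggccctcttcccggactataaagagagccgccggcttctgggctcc
MT1H, chr16:56669564-56669813, plus strand: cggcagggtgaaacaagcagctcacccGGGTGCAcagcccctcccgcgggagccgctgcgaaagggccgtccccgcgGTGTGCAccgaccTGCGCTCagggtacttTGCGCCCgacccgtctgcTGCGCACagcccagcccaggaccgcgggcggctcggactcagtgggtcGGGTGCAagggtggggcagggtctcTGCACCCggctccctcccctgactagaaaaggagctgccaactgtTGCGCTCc
The MT2A stretch held 7 matches that do not overlap, the MT1X stretch 4 and the MT1H stretch 8. At least 1 match was found in 24.7% of the 27305 promoters of the table over the same length, at least 4 in 0.366% and at least 7 in 0.033%. The letters TATAAA occurred once in MT2A and once in MT1X, and not in MT1H. They occurred in 7.17% of all promoters over this length. MT1H, with the most matches of the 3, was the one at the lowest level in these libraries, so the number of matches did not order the levels. A match describes letters and is not a measured binding site.

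Levels are FPKM, fragment counts scaled for transcript length and for the total of mapped fragments, so that levels of different genes can be set side by side. Tests were run with limma on log2(FPKM + 1) over the 13553 genes with a mean of at least 0.5 FPKM, and a change was called at a Benjamini-Hochberg adjusted p under 0.05. A log2 change on this scale understates the change of genes near 0. The FPKM of a library summed to between 510449 and 613101, with 11044 to 11958 genes at 1 FPKM or more. The number of reads is unknown. OGT itself stood at 59.04 and 58.38 FPKM in MHCC-97H Flag-OGT libraries, against 32.53 and 34.16 FPKM in MHCC-97H controls. OGT in MHCC-97L stood at 50.95 and 54.54 FPKM with Flag-OGT, against 45.73 and 43.90 FPKM in controls. The MHCC-97L gain of 0.23 on the log2 scale (adjusted p = 0.0034) was not called after median-of-ratios scaling (0.03, adjusted p = 0.55). OGA, the enzyme that removes the sugar, averaged 24.8 FPKM in MHCC-97H Flag-OGT libraries against 13.1 FPKM in controls, and 31.2 FPKM against 10.9 FPKM in MHCC-97L. ZNF263, the zinc-finger factor the study is about, averaged 14.8 FPKM against 14.6 FPKM in MHCC-97H and 12.8 FPKM against 14.6 FPKM in MHCC-97L, with Flag-OGT and in controls.

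The libraries labelled Flag-OGT stood apart from the controls of the same line. Pearson's r of log2(FPKM + 1) over genes was 0.725 to 0.753 between states of 1 line, but 0.957 to 0.963 between the lines in 1 state and 0.997 to 0.999 between replicates. The summed level of the 13 hepatocyte markers was 27.9 to 28.4 FPKM in MHCC-97H Flag-OGT libraries, against 5444 to 5696 FPKM in MHCC-97H controls. It was 20.8 to 33.5 FPKM in MHCC-97L Flag-OGT libraries, against 6388 to 6435 FPKM in MHCC-97L controls. HNF4A, a master regulator of hepatocytes, was at 0.035 and 0.015 FPKM on average in the MHCC-97H and MHCC-97L Flag-OGT libraries, against 14.6 and 13.6 FPKM in their controls. KRT8 and KRT18, keratins of simple epithelia, made up most of the control sums, with 3846 and 1630 FPKM in MHCC-97H controls and 4134 and 2111 FPKM in MHCC-97L controls. TTR was listed at 0 in all 4 Flag-OGT libraries but was also low in controls, at 0.17 FPKM in MHCC-97H and 1.18 FPKM in MHCC-97L. ALB averaged 0.04 FPKM against 1.86 FPKM in MHCC-97H and 0.095 FPKM against 13.8 FPKM in MHCC-97L, with Flag-OGT and in controls. HNF4A and the epithelial keratins of the labelled liver cancer were thus near 0 or strongly lower in the libraries labelled Flag-OGT, while secreted hepatocyte markers such as ALB and TTR were low in MHCC-97H controls too. The 8 fibroblast markers summed to 20.6 to 20.9 FPKM in MHCC-97H Flag-OGT libraries against 9.09 to 12.2 FPKM in controls, and to 14.6 to 15.5 FPKM in MHCC-97L Flag-OGT libraries against 4.65 to 5.37 FPKM in controls. ACTA2 and COL1A1 were the tested members that rose. COL3A1, too low to be tested, averaged 0.94 FPKM in MHCC-97H Flag-OGT libraries against 0.025 FPKM in controls, and 0.03 FPKM against 0.035 FPKM in MHCC-97L. LUM fell to 0.035 FPKM in MHCC-97H Flag-OGT libraries, against 10 FPKM in controls, and to 0.04 FPKM in MHCC-97L, against 4.48 FPKM. Leukocyte markers, of which 7 of 8 had a row, summed to 2.85 to 8.74 FPKM over the Flag-OGT libraries of both lines, against 69.1 to 82.5 FPKM over the controls. Nearly all of that difference was CD68, a lysosomal protein gene, at 1.13 and 2.24 FPKM in MHCC-97H and MHCC-97L Flag-OGT libraries against 78.6 and 63.6 FPKM in their controls, and LYZ was higher with Flag-OGT in MHCC-97L. The 6 endothelial markers summed to 0.66 to 1.57 FPKM over the Flag-OGT libraries, against 33.5 to 46.4 FPKM over the controls, mostly ESAM. These values move with every Flag-OGT comparison below. Their part in the metallothionein results was not tested, and within a line they cannot be told apart from Flag-OGT.

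Summed over the family, metallothionein RNA was several-fold higher in the Flag-OGT libraries of both lines. The 8 members summed to 107.2 and 106.4 FPKM in MHCC-97H Flag-OGT libraries, against 24.4 and 20.6 FPKM in MHCC-97H controls. In MHCC-97L they summed to 181.7 and 158.7 FPKM with Flag-OGT, against 24.6 and 28.7 FPKM in controls. The groups did not overlap in either line. The ratio of group means was 4.74 in MHCC-97H, with single library pairs between 4.35 and 5.19, and 6.4 in MHCC-97L, with library pairs between 5.54 and 7.4. Control sums lay closer together, at 22.5 ± 2.69 FPKM in MHCC-97H and 26.6 ± 2.91 FPKM in MHCC-97L (SD, n = 2 each). They did not overlap either, with a ratio of means of 0.848 and library pairs between 0.721 and 0.996. With bulk RNA, a change in the share of cells that transcribe a gene and a change in RNA per cell cannot be told apart.

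The makeup of that sum also differed. MT2A gave 51.1% and 52.7% of it in MHCC-97H Flag-OGT libraries, against 93.1% and 90.3% in MHCC-97H controls. MT1X gave 46.5% and 44.4% with Flag-OGT in MHCC-97H, against 1.15% and 3.92% in controls. MHCC-97H thus held a nearly pure MT2A pool in the controls and nearly equal MT2A and MT1X with Flag-OGT. In MHCC-97L, MT2A gave 66.1% and 64% with Flag-OGT, against 78.5% and 76.9% in controls, and MT1X gave 29.9% and 32.4%, against 10.6% and 14%. Without MT2A, the other 7 members summed to 51.4 ± 1.45 FPKM in MHCC-97H Flag-OGT libraries against 1.84 ± 0.226 FPKM in controls, and to 59.4 ± 3.16 FPKM against 5.96 ± 0.948 FPKM in MHCC-97L (SD, n = 2 each).

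**Figure D1:**
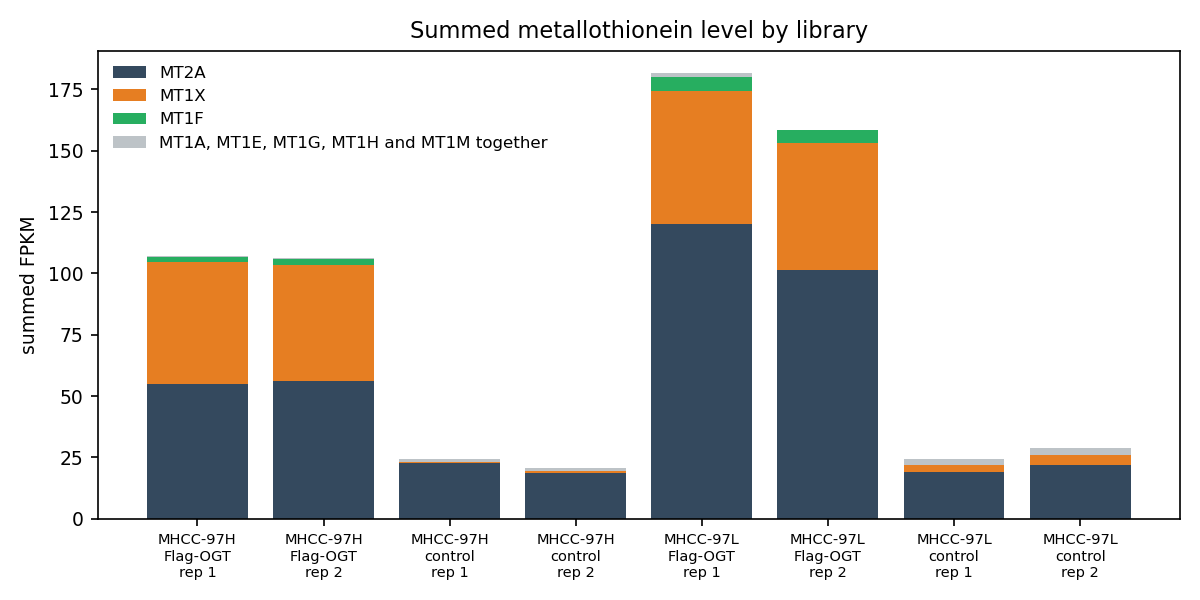
Summed FPKM of the 8 metallothionein genes in each of the 8 libraries (vertical axis, linear from 0), stacked by gene. Flag-OGT libraries reach 106.4 to 181.7 FPKM and controls 20.6 to 28.7 FPKM, with MT2A and MT1X making up nearly all of each bar with Flag-OGT and MT2A most of each control bar.

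Of the 8 members, 5 passed the filter on low values and 3 (MT1G, MT1H and MT1M) did not. MT1F passed only through its Flag-OGT libraries and MT1A only through the controls, so these 2 had to differ between the states, while MT1X would have passed on either. The filter lay between MT1A and MT1E, with means of 0.568 and 0.56 FPKM over all libraries, and MT1G with 0.133 FPKM. In MHCC-97H, 3 of the 5 tested members were called higher with Flag-OGT and 1 lower, against 84.6% of all tested genes called in that comparison, 48.2% higher and 36.3% lower. At a minimum change of 2-fold, 3 members were called, all higher, against 38.2% of all genes. In MHCC-97L the counts were also 3 higher and 1 lower, against 84.8% of all genes called, 50.1% higher and 34.7% lower, and all 4 of these members passed the 2-fold minimum. With that background a call alone says little about a member, and the sizes carry the description. The median log2 change of the 5 tested members was 1.38 in MHCC-97H and 2.37 in MHCC-97L, beside 0.15 and 0.19 over all genes tested. Median-of-ratios scaling moved these all-gene medians to 0.01 and 0.03, and the directions of MT2A, MT1X, MT1F and MT1A in both lines were the same under all 3 rescalings tried. The medians of the 5 tested members depend on the filter and do not describe all 8. With no filter, MT1G, MT1H and MT1M changed by 0.00, 0.09 and 0.00 in MHCC-97H. In MHCC-97L they changed by -0.39, -0.14 and 0.04. The higher medians thus rest on MT2A, MT1X and MT1F.

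MT2A, the broadly transcribed and usually most abundant member, was the highest of the family in every library. It stood at 54.77 and 56.08 FPKM in MHCC-97H Flag-OGT libraries, against 22.77 and 18.65 FPKM in MHCC-97H controls. In the MHCC-97L Flag-OGT libraries it stood at 120.08 and 101.52 FPKM, against 19.26 and 22.03 FPKM in controls. Both Flag-OGT groups lay wholly above their controls, and the 4 control libraries of the 2 lines overlapped. The log2 change was 1.38 ± 0.11 in MHCC-97H (SE; limma, adjusted p = 5.6e-07) and 2.37 ± 0.11 in MHCC-97L (adjusted p = 9.5e-09). As ratios of group means these were 2.68-fold and 5.37-fold. The change in MHCC-97H minus that in MHCC-97L was -0.98 ± 0.15 (adjusted p = 0.00032). In rank among all rows, MT2A moved to 1536 and 1498 in MHCC-97H Flag-OGT libraries, against 3448 and 3997 in controls, and to 707 and 859 in MHCC-97L Flag-OGT libraries, against 3946 and 3561 in controls.

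MT1X, the other member with a broad basal transcription, had the widest range of the family on the log2(FPKM + 1) scale. It stood at 49.82 and 47.29 FPKM in MHCC-97H Flag-OGT libraries, against 0.28 and 0.81 FPKM in MHCC-97H controls. In MHCC-97L it stood at 54.40 and 51.48 FPKM with Flag-OGT, against 2.61 and 4.01 FPKM in controls. The groups were far apart in both lines, and the 2 Flag-OGT groups lay close together while the MHCC-97H controls lay below all MHCC-97L controls. The log2 change was 5.02 ± 0.17 in MHCC-97H (SE; limma, adjusted p = 9.3e-10) and 3.66 ± 0.17 in MHCC-97L (adjusted p = 1.2e-08), with a difference of 1.36 ± 0.24 (adjusted p = 0.0008), or 2.38 at a pseudocount of 0.1. The ratio of means was 89.1 in MHCC-97H, with library pairs between 58.4 and 177.9, a wide span set by the control values under 1 FPKM. In MHCC-97L it was 16, with library pairs between 12.8 and 20.8. MT1X and MT2A therefore differed between the lines in opposite directions: the gain of MT1X was larger in MHCC-97H, where its control level was lower, and that of MT2A was larger in MHCC-97L, where its Flag-OGT level was higher.

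MT1F, a metal-inducible member, was a low-level gene that appeared with Flag-OGT. It stood at 2.17 and 2.66 FPKM in MHCC-97H Flag-OGT libraries and was listed at 0 in both MHCC-97H controls. The MHCC-97L values were 5.70 and 5.29 FPKM with Flag-OGT, against 0.16 and 0 FPKM in controls. Both Flag-OGT groups lay above every control library, by a log2 change of 1.77 ± 0.10 in MHCC-97H (SE; limma, adjusted p = 3.6e-08) and 2.59 ± 0.10 in MHCC-97L (adjusted p = 2.2e-09). With a pseudocount of 0.1 these were 4.65 and 5.12, so their size depends on how values near 0 are treated, and no fold is given. MT1F passed the filter only through its Flag-OGT libraries, so a difference between the states was a condition of its being tested. With no filter the log2 changes were the same (limma, adjusted p = 4.8e-06 in MHCC-97H and 8.9e-07 in MHCC-97L). The difference between the lines was -0.82 ± 0.14 (adjusted p = 0.00053) at a pseudocount of 1, and -0.47 (adjusted p = 0.46) at a pseudocount of 0.1.

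MT1A, a member that is usually low until metals induce it, went the other way. It was listed at 0 in both MHCC-97H Flag-OGT libraries, against 0.55 and 0.98 FPKM in MHCC-97H controls. Its MHCC-97L values were 0.16 and 0.16 FPKM with Flag-OGT, against 1.16 and 1.53 FPKM in controls. The groups did not overlap, and all values were at most 1.53 FPKM, where a small number of fragments sets the level. The log2 change was -0.81 ± 0.12 in MHCC-97H (SE; limma, adjusted p = 7.8e-05) and -1.01 ± 0.12 in MHCC-97L (adjusted p = 1.4e-05), and -3.07 and -2.46 at a pseudocount of 0.1. The difference between the lines, 0.20 ± 0.16, was not called (adjusted p = 0.3). MT1A missed the filter, and had no test, when either MHCC-97L control library was left out. With all libraries it passed only through the controls, so a difference between the states was a condition of its being tested. With no filter its log2 changes were the same (limma, adjusted p = 0.00087 in MHCC-97H and 0.00028 in MHCC-97L).

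MT1E, known as one of the more widely transcribed MT1 genes, was low and scattered. It stood at 0.29 and 0.41 FPKM in MHCC-97H Flag-OGT libraries, against 0.85 and 0.21 FPKM in controls. In MHCC-97L it stood at 1.18 and 0.18 FPKM with Flag-OGT, against 0.77 and 0.59 FPKM in controls. The groups overlapped in every comparison. The log2 changes of -0.15 ± 0.26 in MHCC-97H and -0.06 ± 0.26 in MHCC-97L were not called (limma, adjusted p = 0.6 and 0.82). The SE was more than that of MT2A, MT1X, MT1F or MT1A, so a moderate change in MT1E was not detectable with 2 libraries.

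MT1G, MT1H and MT1M, inducible members that are often silenced in liver cancer, were at or near 0. MT1G was listed at 0 in both MHCC-97H Flag-OGT libraries and both MHCC-97H controls. In MHCC-97L it stood at 0.19 and 0 FPKM with Flag-OGT, against 0.59 and 0.28 FPKM in controls. MT1H was above 0 in 1 MHCC-97H Flag-OGT library, at 0.13 FPKM, and in 1 MHCC-97L control, at 0.22 FPKM. MT1M was above 0 in a single MHCC-97L Flag-OGT library, at 0.05 FPKM. Of the other family rows looked for, MT1B and MT4 were in the table, and both were listed at 0 in all 8 libraries. MT1G was thus the one of these genes with groups that did not overlap, between the states of MHCC-97L and between the controls of the lines. With no filter on low values, MT1G was called lower with Flag-OGT in MHCC-97L, with a log2 change of -0.39 ± 0.11 (limma, adjusted p = 0.02). Of the 18536 genes then tested, 5436 were called lower in that comparison. Without the filter MT1G was also called lower in MHCC-97H controls than in MHCC-97L controls, with a log2 difference of -0.51 ± 0.11 (adjusted p = 0.0098).

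**Figure D2:**
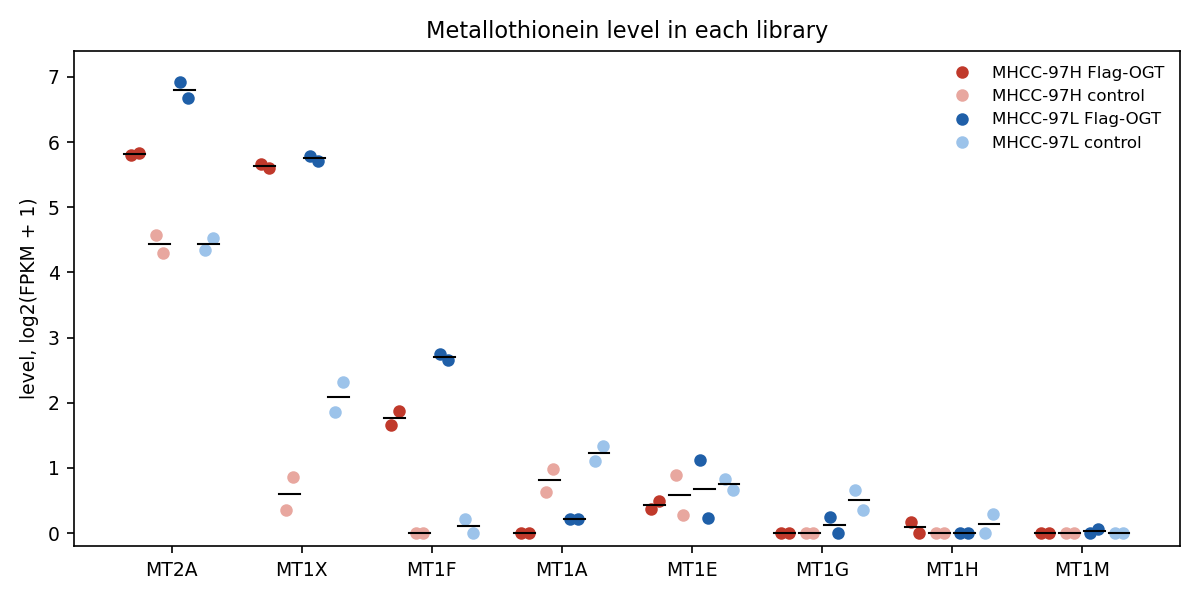
FPKM of each of the 8 metallothionein genes in the 8 libraries, drawn on a log2(FPKM + 1) axis; points are single libraries and black lines the mean of the log2 values of a group. MT2A, MT1X and MT1F lie higher with Flag-OGT in both lines, MT1A lies lower, and MT1E, MT1G, MT1H and MT1M lie low, with groups of MT1E that overlap and MT1G above 0 in 3 of the 4 MHCC-97L libraries.

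The order of the members within a group depended on the state. In both Flag-OGT groups it was MT2A, MT1X, MT1F, then MT1E and the rest, with no overlap between the first 3. MT2A and MT1X lay closest in MHCC-97H Flag-OGT libraries, at 54.77 to 56.08 and 47.29 to 49.82 FPKM. In MHCC-97H controls MT2A stood alone at 18.65 to 22.77 FPKM, and MT1A, MT1X and MT1E followed with overlapping values under 1 FPKM. In MHCC-97L controls the order was MT2A, MT1X at 2.61 to 4.01 FPKM, MT1A at 1.16 to 1.53 FPKM, then MT1E and MT1G, which met at 0.59 FPKM. MT1F, which came next after MT1X in all 4 Flag-OGT libraries, was listed at 0 in 3 of the 4 controls.

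Without Flag-OGT, the lines differed in MT1X and MT1A and not detectably in MT2A. Of the 5 tested members 0 were called higher and 2 lower in MHCC-97H controls relative to MHCC-97L controls, against 65.4% of all tested genes called, 26.5% higher and 38.9% lower. At a 2-fold minimum 1 member, MT1X, was called, against 7.64% of all genes. Of all calls 40.5% were higher, but 52.6% were after rescaling to a common sum. MT1X averaged 0.545 ± 0.375 FPKM in MHCC-97H and 3.31 ± 0.99 FPKM in MHCC-97L (SD, n = 2 each), a log2 difference of -1.48 ± 0.17 (limma, adjusted p = 4e-05), or -2.50 at a pseudocount of 0.1. MT1A averaged 0.765 ± 0.304 FPKM in MHCC-97H and 1.34 ± 0.262 FPKM in MHCC-97L, a log2 difference of -0.42 ± 0.12 (adjusted p = 0.0098). The MT1A difference is of the size of 1 library's deviation: it was -0.24 (adjusted p = 0.081) without the first MHCC-97H control. MT2A averaged 20.7 ± 2.91 FPKM in MHCC-97H and 20.6 ± 1.96 FPKM in MHCC-97L, with a log2 difference of 0.00 ± 0.11 (adjusted p = 1).

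With Flag-OGT in both lines, MT2A and MT1F were lower in MHCC-97H than in MHCC-97L. Of the 5 tested members 0 of 5 were called higher and 2 lower in MHCC-97H relative to MHCC-97L, against 69.7% of all tested genes called, 33.6% higher and 36.1% lower. At a 2-fold minimum 0 members were called, against 7.83% of all genes, since MT2A and MT1F lay just under it. Of all calls 48.2% were higher, but 62.7% were after rescaling to a common sum, which moved the all-gene median from -0.02 to 0.11. MT2A averaged 55.4 ± 0.926 FPKM in MHCC-97H and 110.8 ± 13.1 FPKM in MHCC-97L (SD, n = 2 each), a log2 difference of -0.98 ± 0.11 (limma, adjusted p = 2.2e-05). MT1F averaged 2.42 ± 0.346 FPKM in MHCC-97H and 5.5 ± 0.29 FPKM in MHCC-97L, a log2 difference of -0.93 ± 0.10 (adjusted p = 1.7e-05). MT1X, at 48.6 ± 1.79 FPKM in MHCC-97H and 52.9 ± 2.06 FPKM in MHCC-97L, was not called (-0.12 ± 0.17, adjusted p = 0.54), and the sign of this value turned when libraries were rescaled to a common sum (0.07). MT1E was not called with all libraries (-0.25, adjusted p = 0.41), but was without the second MHCC-97L Flag-OGT library (-0.69, adjusted p = 0.025). MT1A, listed at 0 in MHCC-97H and at 0.16 FPKM in MHCC-97L, was called only at a pseudocount of 0.1 (-1.38, adjusted p = 0.0012), and not at a pseudocount of 1 (-0.21, adjusted p = 0.12).

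Over the difference of the 2 Flag-OGT changes, 1 member (MT1X) was called higher in MHCC-97H and 2 (MT2A and MT1F) lower, of 5 tested, against 63.3% of all tested genes called, 33.9% higher and 29.4% lower. At a 2-fold minimum MT1X alone was called, against 12.4% of all genes. The 2 changes share no library. The 4 comparisons within a line or within a state do share libraries with each other, so their values are set side by side here and not counted as repeats.

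**Figure D3:**
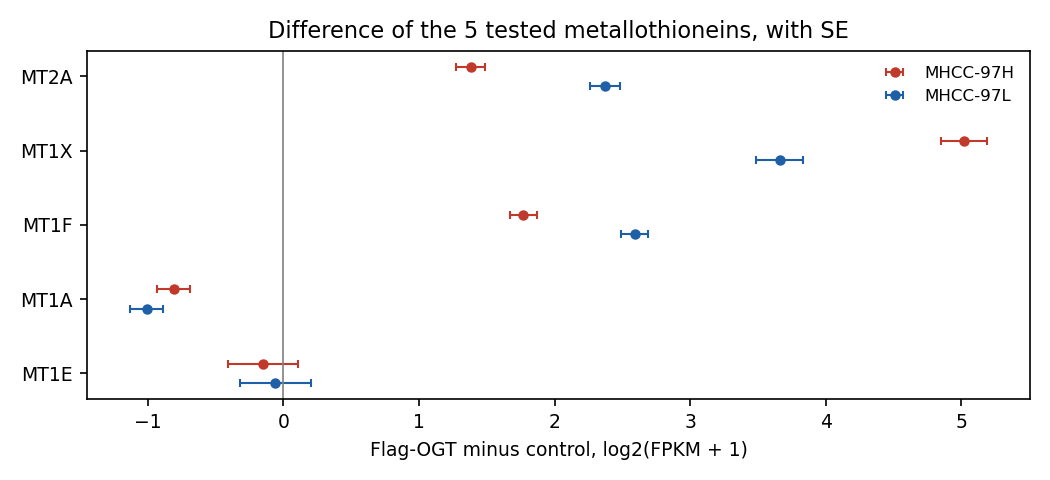
Log2 change with its SE for the 5 tested members in the Flag-OGT comparisons, in MHCC-97H and MHCC-97L. MT1X reaches 5.02 in MHCC-97H and 3.66 in MHCC-97L, MT2A 1.38 and 2.37, MT1F 1.77 and 2.59, MT1A lies below 0 in both lines, and the SE bars of MT1E cross 0 in both lines.

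Among the 5 tested members, MT1F and MT2A had the most alike profiles on the log2(FPKM + 1) scale. That likeness depends on how values near 0 are treated. At a pseudocount of 0.1 MT1F changed by 4.65 in MHCC-97H and 5.12 in MHCC-97L, and MT2A by 1.42 and 2.42. MT1X then changed by 6.37 and 3.99, and distances were not computed at that setting. After subtraction of each gene's mean, the Euclidean distance over the 8 log2(FPKM + 1) values was 0.59 between MT1F and MT2A. It was 3.51 between MT1F and MT1X and 3.94 between MT1X and MT2A. By the same measure the nearest of all tested genes to MT2A was RPS15, a ribosomal protein gene of the small subunit, at 0.34, followed by SYT5 at 0.35 and ZNF256 at 0.38. RPS15 averaged 3043 FPKM in MHCC-97H Flag-OGT libraries against 1153 FPKM in controls, and 4918 FPKM in MHCC-97L Flag-OGT libraries against 1048 FPKM in controls. Nearest to MT1X were KCNG1 at 0.66, SYNGR1 at 0.85 and SPATC1L at 0.88. KCNG1, a modifier subunit of voltage-gated potassium channels, averaged 25.2 FPKM in MHCC-97H Flag-OGT libraries against 0.085 FPKM in controls, and 29.8 FPKM in MHCC-97L Flag-OGT libraries against 1.97 FPKM in controls. Nearest to MT1F were PVALB at 0.25, HMGN5 at 0.29 and ZNF256 at 0.30. Nearest to MT1A were RHEBL1 at 0.31 and PLEKHH2 at 0.32, and nearest to MT1E were CTU1 at 0.49, IRGM at 0.53 and BIN3 at 0.55. A gene's own distance from its mean was 6.34 for MT1X, 3.23 for MT1F, 2.84 for MT2A, 1.40 for MT1A and 0.84 for MT1E, so the MT1E neighbours are little closer to it than a flat profile is.

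The members' transcripts share sequence, which limits how firmly reads can be told apart. In GENCODE 29 transcripts, 14.7% of the 50-base pieces of MT1X also occurred in another member, 19.9% of those of MT1G, 4.9% of those of MT1A and 3.59% of those of MT1F. For MT2A the share was 2.17%, for MT1H 3.16%, for MT1M 1.92% and for MT1E 0.458%. Another 29.2% of the MT1X pieces also lay in AC026461.1, a non-coding gene that overlaps MT1X on the same strand and has no row in the table. Counting pieces shared with any other gene, pseudogenes included, the share was 45.1% for MT1X, 20.4% for MT1H and 20.2% for MT1G, and 3.59% to 7.05% for the other 5. By share of pieces alone, MT2A and MT1F are less open to exchanged reads than MT1X. The share leaves out the level of the gene that reads could come from. MT1F shares pieces with MT1X, and stood at 2.17 to 5.70 FPKM in the Flag-OGT libraries beside MT1X at 47.29 to 54.40 FPKM. How much of the MT1F value came from exchanged reads was not tested. How the authors' counting assigned shared reads is not stated in those sources.

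MTF1, the metal sensor, was lower with Flag-OGT. It stood at 2.34 and 2.00 FPKM in MHCC-97H Flag-OGT libraries, against 2.82 and 3.15 FPKM in controls. MTF1 in MHCC-97L was at 2.13 and 2.02 FPKM with Flag-OGT, against 2.90 and 2.48 FPKM in controls. The groups did not overlap in either line, with a log2 change of -0.33 ± 0.09 in MHCC-97H (limma, adjusted p = 0.0052) and -0.26 ± 0.09 in MHCC-97L (adjusted p = 0.018). Of the 16 tested genes of metal, hormone and cytokine input and chromatin control, 8 were higher and 8 lower in MHCC-97H, and 6 higher and 9 lower in MHCC-97L, with medians of -0.01 and -0.29. Median-of-ratios scaling gave 4 higher and 8 lower in MHCC-97H, with a median of -0.19, and 5 higher and 9 lower in MHCC-97L. Of all tested genes, 48.2% were called higher and 36.3% lower in MHCC-97H, and 50.1% and 34.7% in MHCC-97L. No list, here or below, was tested against these shares, so a split list by itself says little about metals or hormones. NFE2L2, which encodes the oxidative stress factor NRF2, averaged 8.12 ± 0.311 FPKM in MHCC-97H Flag-OGT libraries against 33.2 ± 0.467 FPKM in controls, and 5.15 ± 0.799 FPKM in MHCC-97L Flag-OGT libraries against 21.8 ± 0.325 FPKM in controls (SD, n = 2 each). KEAP1, its inhibitor, was higher, by 2.06 in MHCC-97H and 1.39 in MHCC-97L on the log2 scale. IL6R and IL6ST, the receptor chains for interleukin-6, fell by 2.31 and 2.18 in MHCC-97H and by 1.70 and 1.17 in MHCC-97L. STAT3, their transcription factor, and NR3C1, the glucocorticoid receptor, were also lower in both lines. The de novo methyltransferase gene DNMT3B averaged 17.3 ± 0.559 FPKM in MHCC-97H Flag-OGT libraries against 3.96 ± 0.0566 FPKM in controls, and 22.2 ± 1.27 FPKM against 6.08 ± 0.247 FPKM in MHCC-97L. DNMT3A rose by 1.82 and 1.13 and the maintenance enzyme gene DNMT1 by 1.00 and 0.89 on the log2 scale in MHCC-97H and MHCC-97L.

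Other genes that metals induce went mostly against the high members. Of 13 tested, 3 were higher and 10 lower in MHCC-97H, with a median log2 change of -2.82, and 2 higher and 10 lower in MHCC-97L, with a median of -2.40. SLC30A1, the plasma membrane zinc exporter and a textbook MTF1 target, stood at 3.65 and 3.19 FPKM in MHCC-97H Flag-OGT libraries, against 9.83 and 10.71 FPKM in controls. In MHCC-97L it stood at 2.01 and 2.13 FPKM with Flag-OGT, against 6.53 and 6.82 FPKM in controls. The log2 change was -1.35 ± 0.08 in MHCC-97H (limma, adjusted p = 5.7e-08) and -1.32 ± 0.08 in MHCC-97L (adjusted p = 7.8e-08), so SLC30A1 and the 3 high metallothioneins changed in opposite directions in the same libraries. HMOX1, the heme-degrading oxygenase, averaged 10.3 ± 0.601 FPKM in MHCC-97H Flag-OGT libraries against 145 ± 5.67 FPKM in controls, and 14 ± 0.445 FPKM in MHCC-97L Flag-OGT libraries against 530.9 ± 9.9 FPKM in controls. TXNRD1, the cytosolic thioredoxin reductase, averaged 18.5 ± 0.226 FPKM against 687 ± 36.6 FPKM in MHCC-97H and 24.2 ± 0.523 FPKM against 469.2 ± 9.24 FPKM in MHCC-97L, with Flag-OGT and in controls. HMOX1 and TXNRD1, as well as GCLC, GCLM, SRXN1 and SLC7A11 of this list, are also NRF2 targets, and all 6 were lower in both lines. The list's largest drop, -8.07 in MHCC-97H for HSPA1A, is uncertain, since HSPA1B is a near-identical copy that was higher by 1.07 in MHCC-97H and 1.85 in MHCC-97L. PGF, a growth factor gene that MTF1 can induce, averaged 8.39 ± 0.156 FPKM in MHCC-97H Flag-OGT libraries against 1.17 ± 0.17 FPKM in controls, and 6.92 ± 0.106 FPKM against 4.04 ± 0.0354 FPKM in MHCC-97L.

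Zinc transporters moved in both directions. Of 7 tested exporters and vesicle loaders (9 of 10 had a row), 4 were higher and 2 lower in MHCC-97H and 5 higher and 2 lower in MHCC-97L. SLC30A3, known for loading zinc into synaptic vesicles, averaged 15.5 ± 0.262 FPKM in MHCC-97H Flag-OGT libraries against 0.065 ± 0.0212 FPKM in controls, and 8.25 ± 0.445 FPKM against 0.115 ± 0.00707 FPKM in MHCC-97L. SLC30A4 rose by 1.19 and 0.78 on the log2 scale, and SLC30A6 fell by 0.56 and 0.25, in MHCC-97H and MHCC-97L. Of 11 tested importers (of 14 sought), 3 were higher and 5 lower in MHCC-97H and 5 higher and 5 lower in MHCC-97L. SLC39A1, a plasma membrane importer found in most cells, averaged 65.4 ± 0.919 FPKM in MHCC-97H Flag-OGT libraries against 197.9 ± 4.4 FPKM in controls, and 72.1 ± 2.65 FPKM against 184.1 ± 1.14 FPKM in MHCC-97L. SLC39A8, an importer of zinc, manganese and cadmium, averaged 11.9 ± 0.672 FPKM in MHCC-97H Flag-OGT libraries against 2.1 ± 0.332 FPKM in controls, and 11.3 ± 0.297 FPKM against 0.755 ± 0.0212 FPKM in MHCC-97L. SLC39A13 rose by 1.15 and 0.80 and SLC39A6 fell by 1.18 and 1.19 on the log2 scale. SLC39A14, the importer that interleukin-6 induces in liver, was not called in MHCC-97H (-0.03, adjusted p = 0.72) and was lower in MHCC-97L (-0.81, adjusted p = 3e-06), a difference between the lines of 0.78 (adjusted p = 0.00016).

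Copper is the other metal that the family holds in cells. Of 15 tested copper genes, 9 were higher and 5 lower in MHCC-97H, against 48.2% of all tested genes higher and 36.3% lower. In MHCC-97L 5 were higher and 6 lower, against 50.1% and 34.7%. With median-of-ratios scaling the counts were 4 higher and 6 lower in MHCC-97H and 3 higher and 7 lower in MHCC-97L. ATP7B, the hepatic copper exporter mutated in Wilson disease, averaged 8.11 ± 0.148 FPKM in MHCC-97H Flag-OGT libraries against 0.19 ± 0.0283 FPKM in controls, and 5.6 ± 0.297 FPKM against 0.38 ± 0.0424 FPKM in MHCC-97L. ATP7A, its counterpart outside the liver, fell by 1.28 in MHCC-97H and by 1.11 in MHCC-97L on the log2 scale, and STEAP2, a metalloreductase gene, by 1.28 and 1.79. CP, the plasma copper carrier ceruloplasmin and a hepatocyte product, averaged 0.005 FPKM in MHCC-97H Flag-OGT libraries against 2.56 ± 0.177 FPKM in controls, and 0.01 FPKM against 34.2 ± 0.87 FPKM in MHCC-97L. The copper chaperone genes ATOX1 and CCS were higher in both lines, by 0.75 and 1.04 in MHCC-97H and by 0.65 and 0.27 in MHCC-97L. The MHCC-97L call of CCS was lost at a common sum (0.16, adjusted p = 0.063).

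Genes that glucocorticoids induce were split as well. Of 7 tested, 3 were higher and 3 lower in MHCC-97H and 4 higher and 3 lower in MHCC-97L. TSC22D3, also called GILZ, averaged 126 ± 0.0849 FPKM in MHCC-97H Flag-OGT libraries against 9.91 ± 0.233 FPKM in controls, and 28.6 ± 0.686 FPKM against 10.1 ± 1.03 FPKM in MHCC-97L. PER1 rose by 2.30 and 1.26 and KLF9 by 2.40 and 0.97 on the log2 scale in MHCC-97H and MHCC-97L. SGK1, another target of the receptor, fell by 0.25 and 0.48, and TAT, a hepatocyte enzyme, by 0.38 and 0.25. FKBP5 had the lowest change of the list in MHCC-97H, at -0.39, and was higher by 0.23 in MHCC-97L. That MHCC-97L call was lost after median-of-ratios scaling (limma, 0.05, adjusted p = 0.47). DUSP1, a MAP kinase phosphatase gene, was not called in MHCC-97H (0.08, adjusted p = 0.31) and fell to 4.85 ± 0.0354 FPKM in MHCC-97L Flag-OGT libraries, against 12.5 ± 0.389 FPKM in controls (SD, n = 2 each). In TSC22D3, PER1 and KLF9 the gain was larger in MHCC-97H, by 2.12, 1.04 and 1.43 (limma, adjusted p = 1.7e-07, 1.4e-05 and 6.2e-06). FKBP5 went the other way, with a difference between the lines of -0.62 (limma, adjusted p = 0.0003).

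**Figure D4:**
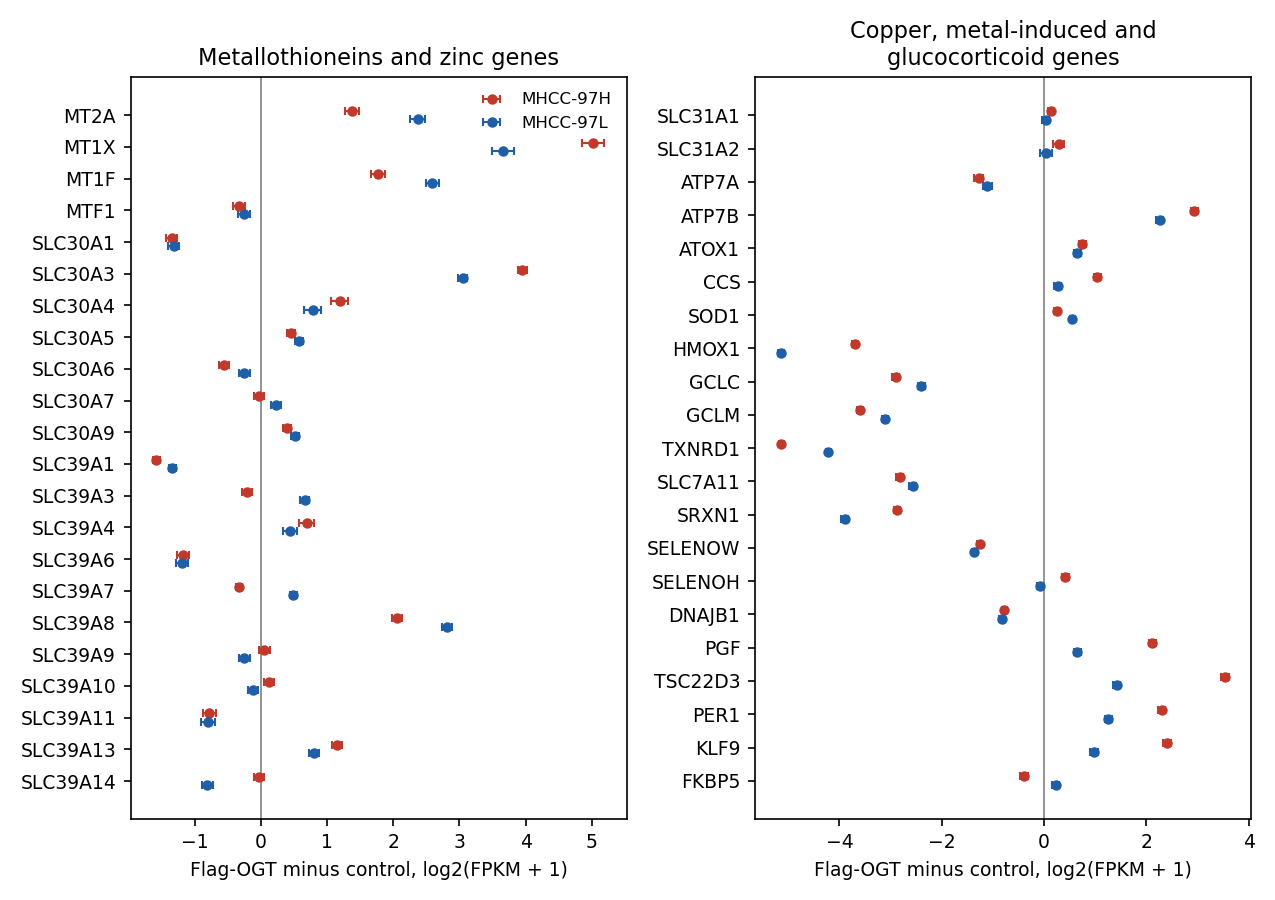
Log2 change with Flag-OGT in MHCC-97H and MHCC-97L for genes of metal sensing, transport and metal induction, with MT2A, MT1X and MT1F for scale; only part of each list is drawn. MTF1 and SLC30A1 lie below 0 in both lines while MT1X, MT2A and MT1F lie above.

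In the chromosomal neighbourhood more genes were higher than lower with Flag-OGT, though not all moved the same way. Of the 10 genes with a row in the table on either side of the cluster, in the order of the RefSeq annotation, 15 of 20 were tested. Of these 10 were higher and 4 lower in MHCC-97H, against 48.2% of all tested genes higher and 36.3% lower. In MHCC-97L 11 were higher and 2 lower, against 50.1% and 34.7% of all tested genes. The medians were 0.44 and 0.58, beside 0.15 and 0.19 over all tested genes. Whether other stretches of the genome lean as much was not tested. The 3 tested genes nearest on the MT2A side were BBS2, OGFOD1 and NUDT21. BBS2, a component of the ciliary BBSome, averaged 13.7 ± 0.24 FPKM in MHCC-97H Flag-OGT libraries against 6.35 ± 0.141 FPKM in controls, and 5.02 ± 0.834 FPKM against 4.92 ± 0.46 FPKM in MHCC-97L, so it was called in MHCC-97H (1.00, adjusted p = 3.7e-06) and not in MHCC-97L (0.02, adjusted p = 0.85). OGFOD1, a ribosomal protein hydroxylase gene, was higher by 0.15 and 0.93 in MHCC-97H and MHCC-97L, of which the MHCC-97H call was lost after rescaling. NUDT21, a subunit of a pre-mRNA cleavage factor, was higher by 0.44 and 1.00. On the MT1X side, NUP93, a nuclear pore gene, was higher by 0.73 and 1.39 and HERPUD1, an endoplasmic reticulum stress gene, by 0.72 and 0.61. NLRC5, a regulator of MHC class I genes, fell by 1.31 and 1.00 in MHCC-97H and MHCC-97L. Farther out on the MT2A side, CES1, a liver carboxylesterase, had the largest change of the 15. It averaged 0.145 FPKM in MHCC-97H Flag-OGT libraries against 520.3 ± 20.2 FPKM in controls, and 0.265 FPKM against 585.3 ± 18.6 FPKM in MHCC-97L (log2 changes of -8.83 and -8.86). At the upper end, GNAO1, a G protein subunit gene, was higher by 1.73 and 1.16 and CPNE2 by 1.54 and 0.91. Within the cluster, MT2A and MT1X are the first and the last of the 8 members in gene order. They were the 2 highest in both Flag-OGT groups and in MHCC-97L controls, though not in MHCC-97H controls, and genes at or near 0 in both states, such as MT1M and MT1H, stood between them.

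**Figure D5:**
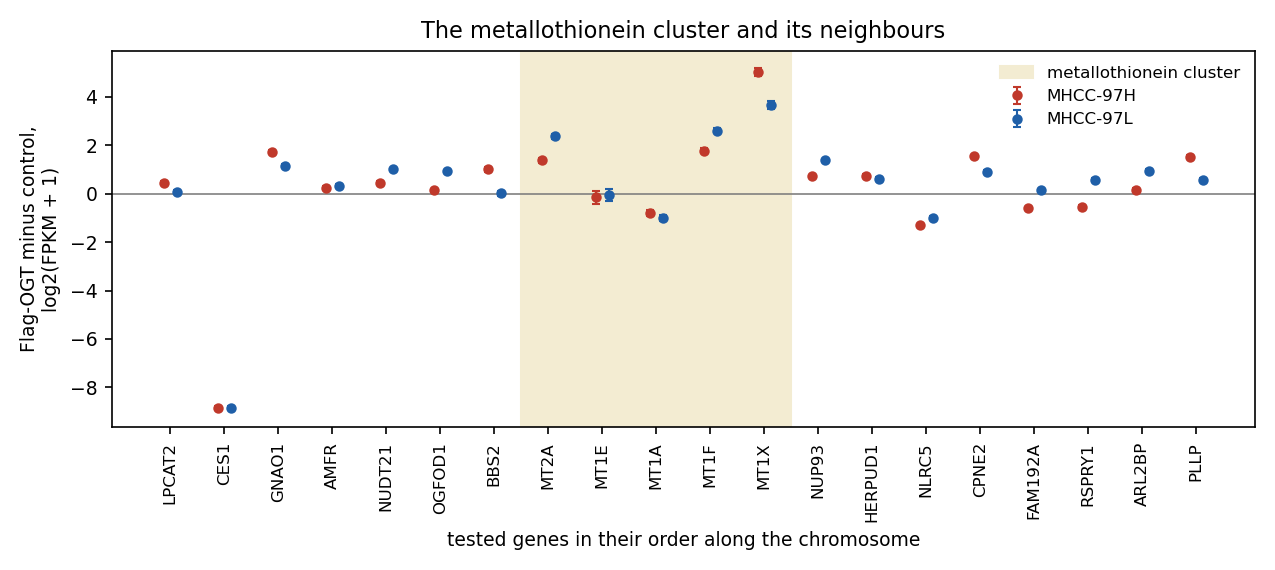
Log2 change with Flag-OGT in MHCC-97H and MHCC-97L for the tested genes of the cluster and its flanks, in gene order along chromosome 16 and without distances. MT1X stands above its neighbours in both lines. Most flank genes lie above 0, with CES1 on the MT2A side and NLRC5 on the MT1X side below 0 in both lines.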

How the data were processed

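The authors deposited FPKM per gene, in 1 table with a column for each library, rounded to 2 decimals. The labels' protocols name Trizol for RNA extraction and a SMARTer kit for the libraries. Per the submitters' processing notes, Bowtie2, HISAT2 2.1.0, RSEM 1.2.4, DESeq2 1.18.1 and the hg19 genome were used, with no role stated for any of them. The chromatin immunoprecipitation libraries were not analysed here. Of 18928 rows, 26 whose symbols had become dates were dropped (up to 0.1% of a library's FPKM). Depth is unknown, so no counting interval is given.

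One limma fit (limma 3.58.1, R 4.3.3) with a mean for each of the 4 groups was made on log2(FPKM + 1) over the 8 libraries, using a mean-variance trend, which leaves 4 residual degrees of freedom. Benjamini-Hochberg adjustment ran over the 13553 genes with a mean of at least 0.5 FPKM, and calls were made under 0.05. The fit was also run on simulated data with independent noise and few changed genes. Most tested genes were called in the data described here, so that run does not bear on these calls. Named genes were all members, other family rows, MTF1, OGT, OGA, ZNF263, the called genes at either end of each list with those described by role, the 3 nearest tested genes on either side of the cluster, and the 3 most alike genes per member, of which 1 is not reported here. The markers of cell types were named after their values were seen. The members and lists were chosen with earlier results of these data known. Alternatives were other pseudocounts (0.1) and filters (none, or 2 FPKM), 3 rescalings (common sum, median of ratios, quantiles), no trend, a 2-fold minimum, a replicate block and leaving out each library. The RefSeq annotation is on GRCh38.p14, another build than the table's. Gene order, gene symbols and the promoter sequences with their positions were taken from it. Tables were made with Python 3.11.15, pandas 2.3.3 and numpy 2.4.6.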

Additional observations from a re-analysis of the deposited data

Results flagged for a closer look

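For 3 members the change with Flag-OGT differed between the lines by a test of the difference itself (limma, Benjamini-Hochberg adjusted over all tested genes). MT1X changed more in MHCC-97H, by 1.36 on the log2 scale (adjusted p = 0.0008), with changes of 5.02 in MHCC-97H and 3.66 in MHCC-97L. MT2A changed less in MHCC-97H, by -0.98 (adjusted p = 0.00032), with changes of 1.38 and 2.37. MT1F also changed less in MHCC-97H, by -0.82 (adjusted p = 0.00053), with changes of 1.77 and 2.59. This MT1F difference was not called at a pseudocount of 0.1 (-0.47, adjusted p = 0.46), so it depends on how values near 0 are treated. Of all tested genes, 63.3% were called in this comparison.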

How the results depend on the processing

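The calls of MT2A, MT1X and MT1F with Flag-OGT in each line kept their direction and stayed called under every alternative that tested them, with MT2A between 1.21 and 1.52 in MHCC-97H and between 2.17 and 2.49 in MHCC-97L. Those of MT1X ran from 4.77 to 6.37 and from 3.43 to 3.99. Counts that moved rested mainly on MT1A and MT1F. With a filter of 2 FPKM, which left both untested, 0 members were lower in either line and 1 in each of the other comparisons. With no filter 2 were lower in MHCC-97L. With a 2-fold minimum the lower members numbered 0 in MHCC-97H, 0 in the difference between lines, 1 between controls and 0 between Flag-OGT lines. All-gene counts, higher and lower, were then 3016 and 2167 in MHCC-97H, 2522 and 2181 in MHCC-97L, 1231 and 448 in the difference, 297 and 739 between controls, and 575 and 486 between Flag-OGT lines. A pseudocount of 0.1 left 1 lower member in the difference, since MT1F was then -0.47 (adjusted p = 0.46), and quantile normalization left 1 between controls, since MT1A was then -0.14 (adjusted p = 0.31). The cause of these 2 moves was not tested.

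Leaving out each library in turn gave 0 to 1 lower members in MHCC-97H and 0 to 1 in MHCC-97L, 1 to 2 higher in the difference, 1 to 2 lower between controls and 2 to 3 lower between Flag-OGT lines. MT1A in the difference was called without the second MHCC-97H control (0.38, adjusted p = 0.04), and MT1A had no test without either MHCC-97L control. Values that changed sign were all uncalled: MT1E ran from -0.46 to 0.16 in MHCC-97H, where the high value came without the first control, and in MHCC-97L it stood at 0.38 in MHCC-97L without the second Flag-OGT library and at 0.01 without the first control. In the difference, MT1A was -0.60 and MT1E 0.09 at a pseudocount of 0.1, and leaving out libraries took MT1E from -0.53, without the second MHCC-97L Flag-OGT library, to 0.22, without the first MHCC-97H control. Between controls, MT1E was 0.12 after quantile normalization and 0.14 without the second MHCC-97H control, and between Flag-OGT lines MT1X was 0.07 at a common sum. Sums without MT2A, the highest member, were 51.4 FPKM in MHCC-97H Flag-OGT libraries against 1.84 in controls, and 59.4 against 5.96 in MHCC-97L. Over all values and alternatives, 374 stayed on the same side of the threshold, 9 turned, 3 passed it and 9 no longer did.

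With the replicate number as a block, the counts of called members were the same, and all-gene counts were 6523 higher and 4913 lower in MHCC-97H and 6778 and 4695 in MHCC-97L. Deviations of same-numbered libraries correlated between -0.206 and 0.309, so the numbers were not shown to pair libraries. A crossed pairing, added after seeing the data, gave 6603 and 4989 in MHCC-97H and 6866 and 4764 in MHCC-97L. With 2 libraries a group and an unknown depth, MT1G, MT1H and MT1M cannot be told from 0 in most libraries.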
